A study of Mus musculus with 7 samples.

Results

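Accessible chromatin was compared at 9 mesenchymal transition genes between Dll1+ and Dll1- mammary tumor cells of MMTV-PyMT mice. The 9 genes were Snai1, Snai2, Twist1, Twist2, Zeb1, Zeb2, Prrx1, Vim and Cdh2. A region counted as theirs when the transcription start site (TSS) nearest to its midpoint, among those of all protein-coding genes, belonged to one of them. By this rule 153 of 119215 accessible regions were assigned to the 9 genes, and each gene had at least 4.

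Cells came from spontaneous tumors of PyMT; Dll1-mCherry mice on a C57BL/6 background, per the study's methods. The MMTV-PyMT transgene expresses the polyoma middle T oncoprotein in mammary epithelium, and mCherry, carried on a bacterial artificial chromosome, reports expression of the Notch ligand gene Dll1. Both transgenes were present in both groups, which the sort divided by mCherry: 3 samples were mCherry-positive (Dll1+) and 4 were mCherry-negative (Dll1-), from 4 tumors of which 3 gave both, and ages were not stated. Cells carrying CD45, CD31 or Ter119 were removed before this division. Those 3 antibodies remove blood and endothelial cells and do not remove fibroblasts, which use several of the same 9 genes. ATAC-seq marks open DNA through the sites at which a transposase can insert sequencing adapters. The authors deposited 1 list of accessible regions per group, called on the samples of that group together. Differences between the lists could therefore not be set against the spread between tumors, and no test was made.

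In an epithelial-mesenchymal transition, epithelial cells lose their junctions and gain motility. The zinc finger factors Snai1, Snai2, Zeb1 and Zeb2 and the basic helix-loop-helix factors Twist1 and Twist2 bind E-box sequences, and the zinc finger factors are known as repressors of the epithelial cadherin gene Cdh1. Prrx1 is a homeobox factor of mesenchymal cells. Vim, which encodes the intermediate filament vimentin, and Cdh2, which encodes N-cadherin, are commonly used as readouts of the mesenchymal state.

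Regions that differed between the lists are shown first, since their sequence is referred to beside the values. The first pair are the strongest region of the 9 genes found in the Dll1- list only and the strongest found in the Dll1+ list only. The other 4 windows were chosen after the values had been seen. They are, from the regions in both lists, a Twist1 region that ranked far higher in Dll1- and a Zeb2 region that ranked far higher in Dll1+, and a further Dll1- region each of Snai1 and Twist2. Each window holds the strongest summit and 100 bases on each side of it, from the forward strand of GRCm38.p6. Capitals mark matches to 7 transcription factor motifs, read on both strands. These were AP-1 (TGACTCA), the E-box of Snail and Zeb factors (CAGGTG), the E-box of Twist factors (CATCTG), TEAD (GGAATG), RUNX (TGTGGT), FOX (TGTTTA) and RBPJ (TGGGAA).
Twist2 Dll1- list only, chr1:91858154-91858354: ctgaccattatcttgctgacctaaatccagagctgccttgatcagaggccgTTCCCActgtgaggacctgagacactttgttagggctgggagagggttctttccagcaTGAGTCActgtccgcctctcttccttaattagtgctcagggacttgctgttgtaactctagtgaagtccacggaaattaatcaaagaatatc
Zeb2 Dll1+ list only, chr2:45071854-45072054: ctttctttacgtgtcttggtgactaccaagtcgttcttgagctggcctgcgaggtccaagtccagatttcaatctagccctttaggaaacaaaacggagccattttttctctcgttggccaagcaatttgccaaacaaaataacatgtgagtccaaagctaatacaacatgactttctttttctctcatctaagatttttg
Twist1 both lists, chr12:34041051-34041251: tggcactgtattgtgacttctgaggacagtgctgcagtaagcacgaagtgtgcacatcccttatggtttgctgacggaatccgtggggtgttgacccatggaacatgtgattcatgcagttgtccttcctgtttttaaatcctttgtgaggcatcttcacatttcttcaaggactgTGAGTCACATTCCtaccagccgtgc
Zeb2 both lists, chr2:46054452-46054652: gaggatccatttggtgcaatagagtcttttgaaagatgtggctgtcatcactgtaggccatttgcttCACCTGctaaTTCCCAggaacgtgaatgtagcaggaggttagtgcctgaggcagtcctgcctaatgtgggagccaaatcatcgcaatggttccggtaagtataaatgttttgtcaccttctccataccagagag
Snai1 Dll1- list only, chr2:167552905-167553105: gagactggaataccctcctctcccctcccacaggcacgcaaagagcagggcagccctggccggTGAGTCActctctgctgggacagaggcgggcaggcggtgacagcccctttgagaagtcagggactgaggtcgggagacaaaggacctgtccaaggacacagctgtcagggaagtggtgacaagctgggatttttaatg
Twist2 intron, Dll1- list only, chr1:91816764-91816964: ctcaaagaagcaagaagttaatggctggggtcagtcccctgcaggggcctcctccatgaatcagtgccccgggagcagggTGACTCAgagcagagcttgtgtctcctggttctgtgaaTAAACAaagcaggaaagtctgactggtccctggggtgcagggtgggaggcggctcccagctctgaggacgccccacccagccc

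The AP-1 letters (TGACTCA or its reverse complement TGAGTCA) were present in the Twist1 window, in the Snai1 window and in both Twist2 windows. They were absent from both Zeb2 windows. The Zeb2 window of the Dll1+ list held none of the 7 motifs, and the Zeb2 window toward Dll1+ in rank held a Snail and Zeb E-box and an RBPJ match. A match describes the letters only.

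Most regions of the 9 genes were accessible in both populations. Of the 153 regions, 88 (57.5%, Wilson 95% interval 49.6 to 65.1) were in both lists, 48 (31.4%, 24.6 to 39.1) in the Dll1- list only and 17 (11.1%, 7.05 to 17.1) in the Dll1+ list only. Over all 119215 regions these shares were 66.4%, 24.6% and 9.01%, so the background share in both lists lay just above the interval of the 9 genes and the other background shares lay within theirs. The intervals cover counting error only, and regions of one gene are not independent. Among the regions found in 1 list, 26.2% of those of the 9 genes were in the Dll1+ list, beside 26.8% over all regions. These shares were close to each other.

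**Figure D1:**
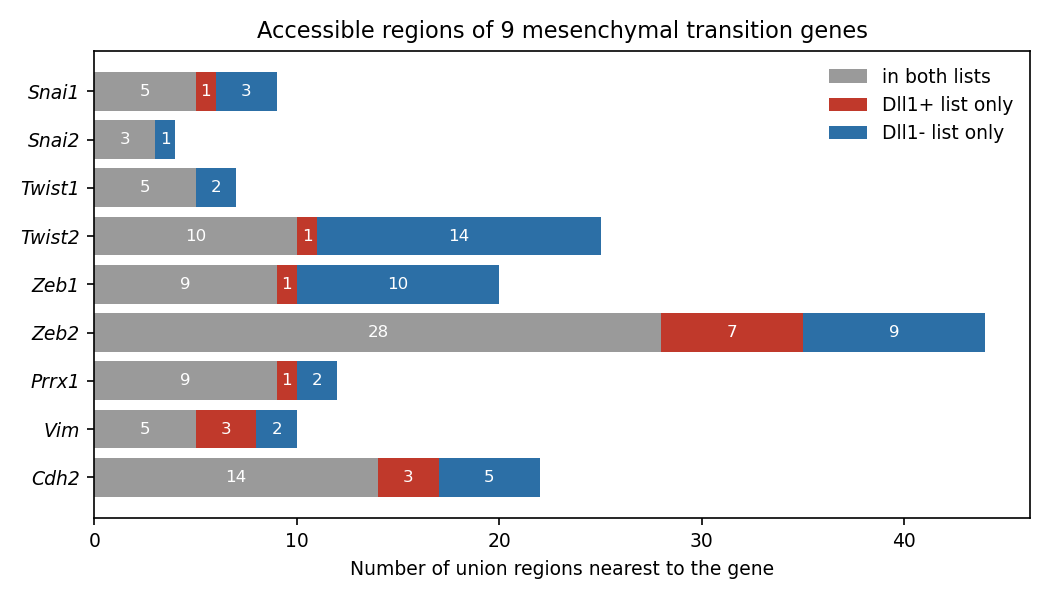
Number of accessible regions nearest to each of the 9 genes (x axis), divided into regions in both lists (grey), in the Dll1+ list only (red) and in the Dll1- list only (blue). Twist2 and Zeb1 had 14 and 10 regions in the Dll1- list only against 1 each in the Dll1+ list only, and Zeb2 had 9 against 7.

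Of the 9 genes, Twist2 and Zeb1 had the highest shares of Dll1- regions. Twist2, a factor of dermal and skeletal mesenchyme, had 25 regions, of which 10 were in both lists, 14 in the Dll1- list only and 1 in the Dll1+ list only. Zeb1 had 20 regions, of which 9 were in both lists, 10 in the Dll1- list only and 1 in the Dll1+ list only. The Dll1- share was 56.0% at Twist2 (37.1 to 73.3) and 50% at Zeb1 (29.9 to 70.1). Of the 1203 genes with 20 or more regions, 17 (1.41%) had at least 50% of their regions in the Dll1- list only, and 5 reached the share of Twist2. At a fold enrichment of at least 5 in both lists, Twist2 had 13 regions, with 6 in the Dll1- list only and 0 in the Dll1+ list only, and Zeb1 had 11, with 3 and 1. With the nearest TSS taken over genes of any type, non-coding ones included, Twist2 had 3 regions, all in the Dll1- list only, and Zeb1 had none.

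At the other genes most regions were in both lists, except that Vim had as many in 1 list as in both. Zeb2 had 44 regions, the most of the 9 genes, with 28 in both lists, 9 in the Dll1- list only and 7 in the Dll1+ list only. Cdh2 had 22 regions divided 14, 5 and 3 in the same order. Prrx1 had 12 regions divided 9, 2 and 1, and Vim had 10 divided 5, 2 and 3. Vim was the one gene with more regions in the Dll1+ list only than in the Dll1- list only. Which genes did so changed with the settings. At a fold enrichment of at least 5, Vim had 0 in each, and Zeb2 had 4 in the Dll1+ list only and 2 in the Dll1- list only. With equal numbers of rows, Zeb2 had 7 and 7, Cdh2 had 4 and 3 and Vim had 3 and 2, Dll1+ first. Snai1 had 9 regions divided 5, 3 and 1, Twist1 had 7 divided 5, 2 and 0, and Snai2 had 4 divided 3, 1 and 0.

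The lists differed in depth, and the part of depth in these counts was tested only by the scaling given below. The number of reads behind each call could be solved for from fold enrichment and p-value. Away from local signal the background was 3.74 reads for Dll1+ and 7.20 for Dll1-, which is 1.93 times as deep. The 48 Dll1- regions of the 9 genes held 19 to 123 reads at the summit (median 32). Divided by this ratio, they would hold 9.87 to 63.9 reads (median 16.6). Of the 48, 42 would then exceed 12 reads, the lowest count of any Dll1+ region of these genes, and 16 would reach 20 or more. Regions in both lists held a median of 1.63 times as many reads in the Dll1- list (1.54 times at the 9 genes), and divided by 1.63, 46 of the 48 would exceed 12 reads and 24 would reach 20. The region with 12 reads stood on the lowest background, 3.74 reads, and a call needs more reads where the background is raised. Passing 12 or 20 reads therefore does not show that a region would be called in the Dll1+ list. The same counts over all Dll1- specific regions are not given here. The reads and background of the Dll1- list were also scaled by the background ratio of 1.93. Rows were kept only where the recomputed -log10 p reached the lowest value of the Dll1+ list, and 145309 of the 148923 Dll1- rows passed. The Dll1- only share was then 31.4% for the 9 genes and 24.5% over all regions, and with so few rows removed this says little about depth.

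Distance separated the regions as well. More than 50 kb separated 65.4% of the 153 regions from the TSS of their gene, beside 31.6% of all regions, and 61.4% were intergenic, beside 34.0%. Within 50 kb the 9 genes had 53 regions, and 20.8% of them were in the Dll1- list only (12.0 to 33.5), beside 23.6% of all regions at that distance. Beyond 50 kb, 37.0% of 100 regions were in the Dll1- list only (28.2 to 46.8), beside 26.7% of all such regions. Twist2 gave 11 and Zeb1 9 of these 37, and the other genes had 17 of 65 (26.2%), with Twist2 and Zeb1 set aside after their shares had been seen. At this distance the nearest TSS need not be that of the gene a region serves. The Twist2 regions farthest downstream lay in Hdac4, which encodes a histone deacetylase, and the Twist1 regions farthest downstream lay in Hdac9. Of the 14 Dll1- regions of Twist2, 3 lay within 50 kb of its TSS, as did 1 of the 10 of Zeb1.

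**Figure D2:**
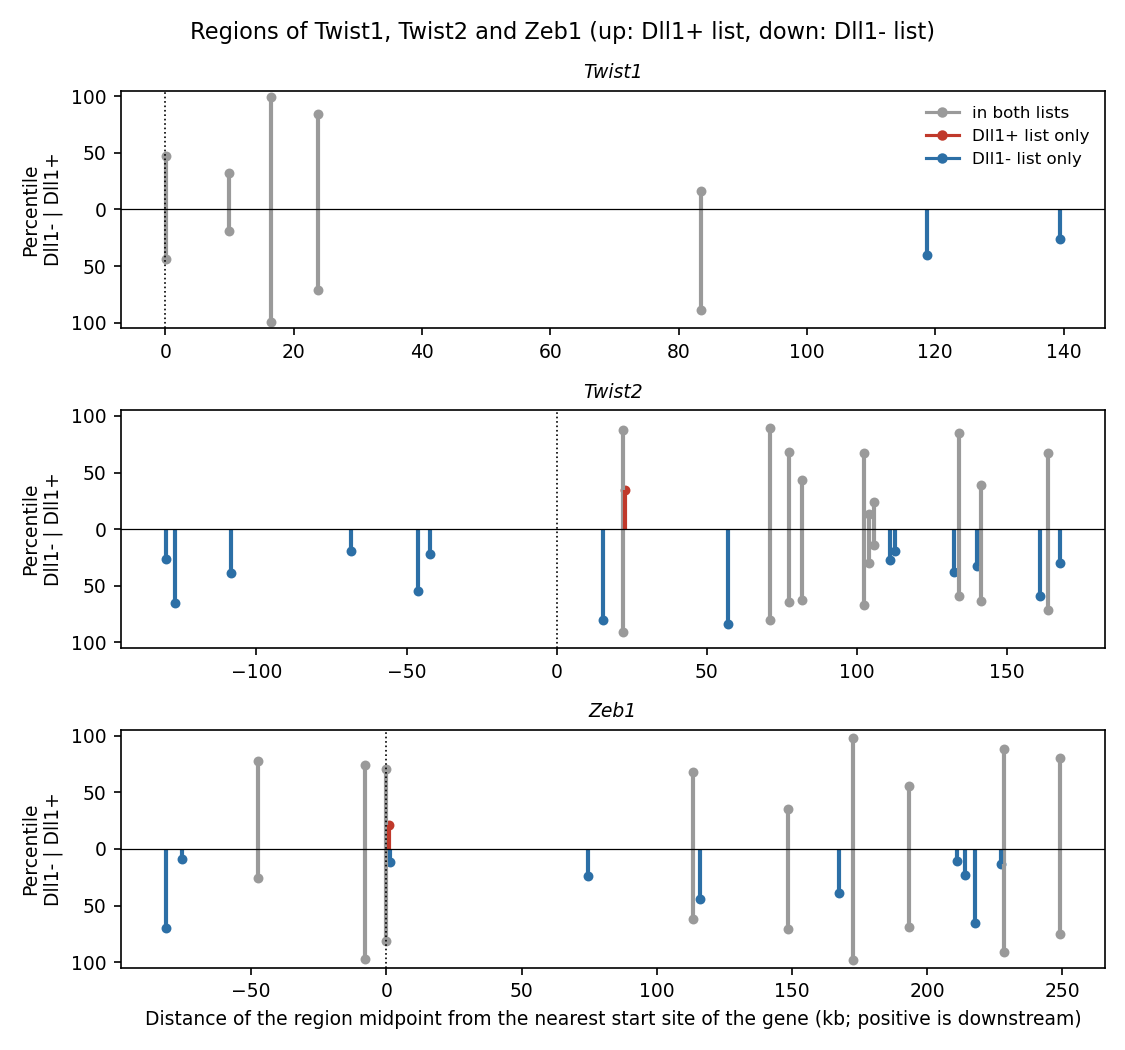
Regions of Twist1, Twist2 and Zeb1 by distance of their midpoint from the nearest TSS of the gene (x axis, kb). Bars give the percentile of fold enrichment within the Dll1+ list (up) and within the Dll1- list (down), in grey for regions in both lists, red for the Dll1+ list only and blue for the Dll1- list only. At Twist2, 6 of the blue bars stand upstream of the TSS, where no region of the Dll1+ list was called.

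Promoters were compared first by presence. A promoter region was one that reached into the 1000 bp before a TSS or the first 100 bp after it. Of the 9 genes, 7 had one in both lists and 2, Twist2 and Prrx1, in neither. Prrx1 had regions in both lists just outside this window, 1.42 kb downstream and 1.46 kb upstream of its TSS. Over all 21851 protein-coding genes, 60% had a promoter region in both lists. No gene of the 9 had a promoter region in 1 list only, beside 3.54% of all genes.

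The strength of each promoter region was compared as a percentile of fold enrichment among the rows of its own list. Snai1 (chr2:167537563-167538461) had the strongest promoter region of the 7 genes in both populations, at the 98.2 percentile with 243 reads in the Dll1+ list and at the 97.7 percentile with 423 reads in the Dll1- list. Snai2 (chr16:14705318-14706144) stood at the 91.0 percentile in the Dll1+ list (224 reads) and at the 92.1 percentile in the Dll1- list (341 reads). Both Snail promoters thus held the same rank in both lists to within 2 points. The Twist1 promoter (chr12:33956807-33958739) was weaker, at the 47.4 percentile with 38 reads in the Dll1+ list and at the 43.6 percentile with 55 reads in the Dll1- list.

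The Zeb1 promoter and the stronger of 2 Zeb2 promoter regions ranked higher in the Dll1- list. Zeb1 stood at the 70.6 percentile in the Dll1+ list (69 reads) and at the 81.0 percentile in the Dll1- list (135 reads), a difference of -10.4 points, Dll1+ minus Dll1-. Zeb2 (chr2:45109564-45110567) stood at the 71.8 percentile (65 reads) and at the 80.8 percentile (137 reads), a difference of -8.93 points. Divided by the background ratio, the Dll1- reads would be 70.1 at Zeb1 and 71.1 at Zeb2. Both lie inside the exact Poisson 95% intervals of the Dll1+ reads, 53.7 to 87.3 and 50.2 to 82.8. The local background was 7.47 and 12.96 reads at Zeb1 and 6.78 and 13.305 at Zeb2, Dll1+ first. These 2 promoters thus differed in rank and not in scaled reads. The weaker Zeb2 promoter region (chr2:45112889-45113240) ranked slightly the other way, at the 40.4 percentile (38 reads) and at the 37.8 percentile (61 reads), a difference of 2.64 points. Cdh2 stood at the 67.3 percentile in the Dll1+ list (77 reads) and at the 65.2 percentile in the Dll1- list (100 reads).

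Vim had the promoter that differed most in rank. Its region (chr2:13573471-13574701) had a fold enrichment of 5.31 in the Dll1+ list, at the 47.2 percentile, and of 8.00 in the Dll1- list, at the 73.4 percentile. It held 122 reads (exact Poisson 95% interval 101 to 146) in the Dll1+ list and 273 (242 to 307) in the Dll1- list. Divided by the background ratio, the 273 would be 142 reads, which lies inside the Dll1+ interval. The local background was also raised there, at 22.2 reads for Dll1+ and 33.3 for Dll1-. The difference, Dll1+ minus Dll1-, was -26.2 points, and only this promoter and that of Zeb1, among the 7, passed the 10 points used here as a difference in rank. Both were toward Dll1-, as were 25.1% of all regions in both lists, so 2 of 7 is near the background. A second Vim region in an intron, 1.90 kb from the TSS, did not follow the promoter, with 327 reads at the 92.0 percentile in the Dll1+ list and 362 reads at the 84.1 percentile in the Dll1- list. That intronic region was chosen after its values were seen. The 250 bases before the first annotated base of Vim, on the forward strand of GRCm38.p6 and within the promoter region, are shown for this difference and held none of the 7 motifs. The 100 bp on each side of the summit of this promoter region, which are not printed, held an AP-1 match.
Vim, chr2:13573677-13573926: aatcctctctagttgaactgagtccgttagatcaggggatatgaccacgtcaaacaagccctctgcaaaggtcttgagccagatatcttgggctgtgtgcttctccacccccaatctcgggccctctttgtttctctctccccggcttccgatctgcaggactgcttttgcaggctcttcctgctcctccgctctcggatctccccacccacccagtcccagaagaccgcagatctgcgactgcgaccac

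**Figure D3:**
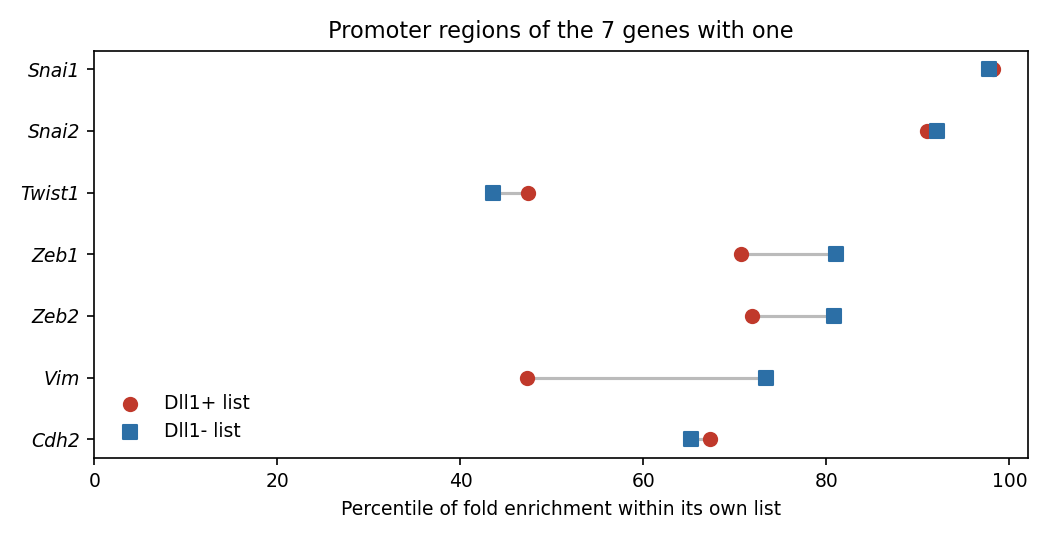
Percentile of fold enrichment of the strongest promoter region within its own list (x axis) for the 7 genes with a promoter region, in the Dll1+ list (red circles) and the Dll1- list (blue squares). Vim stands at 47.2 and 73.4, and of the other 6 genes Zeb1 differs most, by -10.4 points (Dll1+ minus Dll1-).

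The 88 regions in both lists moved in rank in both directions, and 51 of them stayed within 10 points. The median difference in percentile, Dll1+ minus Dll1-, was -1.02 points (quartiles -9.86 and 5.53), beside -1.67 over all 79153 such regions (quartiles -10.03 and 4.47). Of the 88, 16 (18.2%) ranked at least 10 points higher in the Dll1+ list and 21 (23.9%) at least 10 points higher in the Dll1- list. Over all regions in both lists these shares were 15.2% and 25.1%. The counts of the 9 genes were near this background in both directions. Which side was larger depended on how ranks were taken: with equal numbers of rows, 22 ranked higher in Dll1+ and 15 in Dll1-. The median difference over all regions in both lists then changed sign as well, to 0.259 points, beside 0.135 for the 9 genes. The turn was therefore not particular to these genes. With percentiles taken among merged regions, 15 ranked higher in Dll1+ and 29 in Dll1-. The shares of all regions that ranked higher were not computed under either setting.

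There were 10 regions of the 9 genes at the 90 percentile or above of both lists, a choice that by itself limits how far they can differ. Cdh2 had 3 of them, Snai2 had 2, and Snai1, Twist1, Zeb1, Zeb2 and Prrx1 had 1 each. The highest of all was a Snai2 region 94.5 kb downstream of the TSS, at the 99.9 percentile with 605 reads in the Dll1+ list and at the 99.8 percentile with 641 reads in the Dll1- list.

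**Figure D4:**
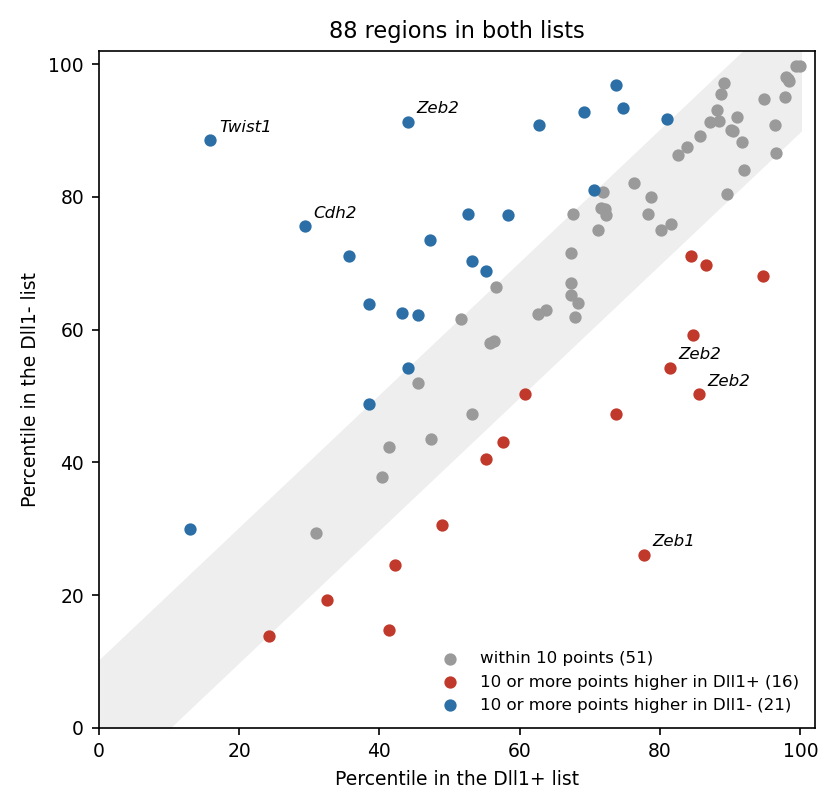
Percentile of fold enrichment within the Dll1+ list (x axis) and within the Dll1- list (y axis) of the 88 regions of the 9 genes in both lists, with the band of less than 10 points between the lists in grey. The 51 grey points lie within the band, 21 blue points rank higher in the Dll1- list and 16 red points higher in the Dll1+ list, and the names mark the 3 largest differences in each direction.

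The largest single shift was at Twist1. A region 83.5 kb downstream of its TSS (chr12:34040927-34041343, intergenic) held 14 reads (7.65 to 23.5) in the Dll1+ list and 100 (81.4 to 122) in the Dll1- list, or 51.9 after division by the background ratio. Its percentile was 15.9 for Dll1+ and 88.5 for Dll1-, a difference of -72.6 points. The window of this region printed above held AP-1 and TEAD matches. Twist1 did not shift as a whole, since 2 of its other regions in both lists ranked at least 10 points higher in the Dll1+ list.

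The next 4 shifts toward Dll1- were at Zeb2, Cdh2 and Zeb1. A Zeb2 region 1535 kb upstream (chr2:46652583-46653089) held 23 reads at the 44.0 percentile in the Dll1+ list and 111 reads at the 91.3 percentile in the Dll1- list. A Cdh2 region 364 kb downstream held 18 reads at the 29.4 percentile and 68 at the 75.5 percentile, in the same order. A Zeb1 region in an intron of the gene, 149 kb from the TSS, held 20 reads at the 35.6 percentile and 61 at the 71.0 percentile. A second Zeb2 region 1395 kb upstream (chr2:46512330-46513117) held 35 reads at the 62.7 percentile and 129 at the 90.8 percentile. Of these 4 regions, 3 were intergenic and the Zeb1 region was intronic.

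The 5 largest shifts toward Dll1+ were at Zeb1, Zeb2 and Cdh2. A Zeb1 region 47.6 kb upstream, within an intron of the non-coding gene Gm10125 of the opposite strand, held 45 reads at the 77.6 percentile in the Dll1+ list and 27 at the 26.1 percentile in the Dll1- list. A Zeb2 region 937 kb upstream (chr2:46054271-46054881) held 65 reads at the 85.5 percentile in the Dll1+ list and 40 at the 50.2 percentile in the Dll1- list. Both regions had fewer reads in the deeper list. A Zeb2 region 25.8 kb upstream (chr2:45142825-45143502) held 50 reads at the 81.5 percentile and 43 at the 54.3 percentile. A Cdh2 region 280 kb downstream held 112 reads at the 94.6 percentile and 57 at the 68.1 percentile, and another 223 kb downstream held 22 reads at the 41.4 percentile and 22 at the 14.8 percentile. Zeb1, Zeb2 and Cdh2 thus had regions that moved far in either direction.

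The regions of a single list were weaker than those in both. The 48 Dll1- regions had a median percentile of 32.6 in their list and the 17 Dll1+ regions 21.4, beside 74.97 and 70.9 for the 88 regions in both lists. Of the 48, 13 (27.1%) stood at the 50 percentile or above, beside 22.3% of all Dll1- specific regions. Of the 17, 2 did so, and both were Zeb2 regions, beside 15.4% of all Dll1+ specific regions.

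The strongest Dll1- region of the 9 genes was that of Twist2 56.9 kb downstream (chr1:91858117-91858720), with 86 reads, a fold enrichment of 10.6 and the 83.9 percentile. The next was a Snai1 region 14.9 kb downstream (chr2:167552846-167553444), with 103 reads, a fold enrichment of 10.01 and the 82.0 percentile. The Twist2 region in its own intron (chr1:91816642-91817020) followed with 76 reads at the 79.8 percentile. Divided by the background ratio, the first would hold 44.7 reads and the Snai1 region 53.5, each more than any of the 17 Dll1+ regions held. Zeb1 had its strongest Dll1- region 81.6 kb upstream (59 reads, 69.6 percentile). The strongest Dll1- region of Zeb2 (chr2:45777458-45777831, 123 reads) stood at the 66.2 percentile and that of Prrx1 (chr1:163285225-163285488, in its intron, 56 reads) at the 64.2 percentile.

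In the remaining genes the strongest Dll1- region was lower. Cdh2 had it at the 51.6 percentile with 41 reads, Vim at the 47.3 percentile with 38 reads (chr2:13675515-13675749, in an intron of St8sia6), Twist1 at the 40.5 percentile with 34 reads (chr12:34076220-34076511, in an intron of Hdac9) and Snai2 at the 19.2 percentile with 24 reads (chr16:14722117-14722372). These 4 genes had no Dll1- region above the 52 percentile.

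The strongest Dll1+ region of the 9 genes was in an intron of Zeb2 38.7 kb from the TSS (chr2:45071124-45072082), with 35 reads, a fold enrichment of 6.47 and the 58.3 percentile. Vim had its strongest Dll1+ region 31.2 kb downstream (chr2:13605353-13605615, 22 reads, 41.4 percentile). In Twist2 it was in the intron (chr1:91824037-91824264, 25 reads, 34.8 percentile) and in Snai1 5.92 kb upstream (chr2:167532081-167532462, 19 reads, 32.5 percentile). Those of Zeb1, Prrx1 and Cdh2 held 29, 19 and 14 reads and stood at the 21.4, 16.4 and 15.9 percentiles. Twist1 and Snai2 had none.

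AP-1 letters accompanied the Dll1- side of these genes. AP-1 is the dimer of Fos and Jun proteins. Within 100 bp of the summit its motif was present in 18 of the 48 Dll1- regions (37.5%, 25.2 to 51.6), in 17 of the 88 regions in both lists (19.3%, 12.4 to 28.8) and in 0 of the 17 Dll1+ regions, which allows a share of up to 17.6% by the limit of 3 counts and 18.4% by the Wilson interval. Over all regions the shares were 30.4%, 15.4% and 4.40% in the same order. The order among the 9 genes was therefore that of the whole genome and not particular to them.

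The same order held among regions in both lists. Of the 21 that ranked higher in the Dll1- list, 8 (38.1%, 20.8 to 59.1) held an AP-1 motif, and of the 16 that ranked higher in the Dll1+ list 1 did (6.25%, 1.11 to 28.3). Over all regions these shares were 27.7% and 4.85%. Among the Dll1- regions, AP-1 was found in 9 of the 13 at the 50 percentile or above (69.2%, 42.4 to 87.3) and in 9 of the 35 below it (25.7%, 14.2 to 42.1), beside 42.2% and 27.0% of all Dll1- specific regions. By gene, AP-1 was present in 5 of 14 Dll1- regions of Twist2, 4 of 9 of Zeb2, 3 of 10 of Zeb1, 3 of 3 of Snai1, 2 of 5 of Cdh2, 1 of 2 of Twist1 and none of those of Snai2, Prrx1 and Vim, which had 1, 2 and 2.

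**Figure D5:**
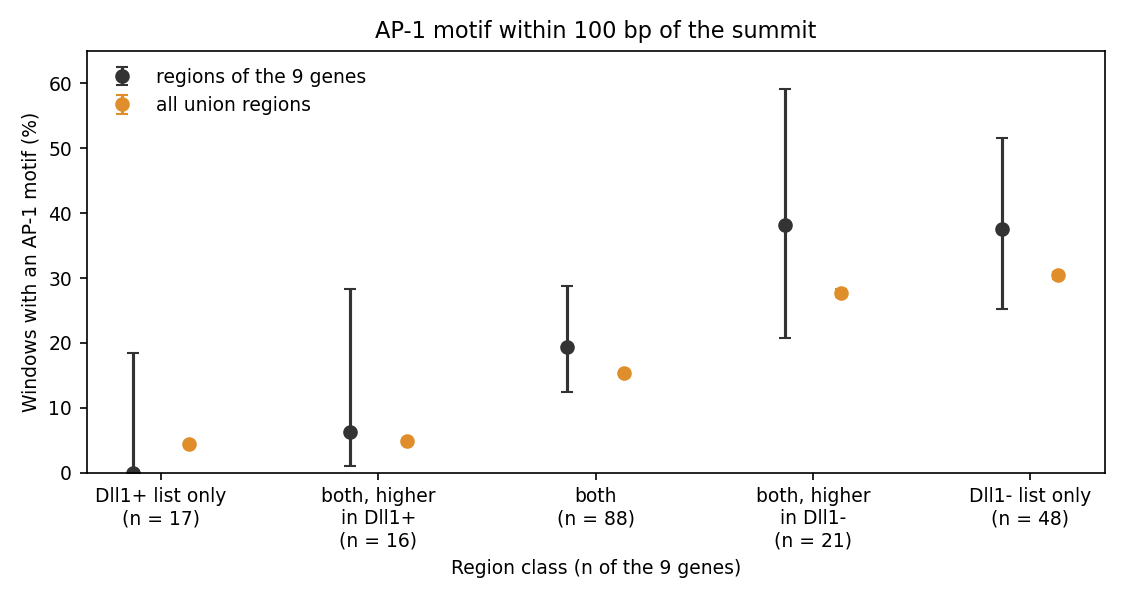
Share of windows, 100 bp each side of the strongest summit, that held an AP-1 motif (y axis, %) by region class, for the 9 genes (black) and for all regions (orange), with Wilson 95% intervals. The share was 0 of 17 in Dll1+ regions of the 9 genes and 37.5% in their Dll1- regions.

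The motifs of the factors themselves were read in the same classes. The E-box of Snail and Zeb factors was present in 21.6% of the regions in both lists, 12.5% of the Dll1- regions and 11.8% of the Dll1+ regions of the 9 genes, beside 18.5%, 17.3% and 17.1% over all regions. The E-box of Twist factors was present in 15.9%, 20.8% and 11.8%, beside 14.5%, 18.5% and 15.7%. For both E-boxes the intervals of the 3 classes overlapped. RBPJ, the DNA-binding partner of Notch receptors, had its letters in 19.3%, 25% and 11.8%, beside 17.9%, 20.1% and 18.5%. TEAD letters were present in 19.3%, 12.5% and 23.5%, beside 14.5%, 15.0% and 17.0%, RUNX letters in 12.5%, 20.8% and 11.8%, beside 14.6%, 16.6% and 17.2%, and FOX letters in 18.2%, 14.6% and 5.88%, beside 12.0%, 11.8% and 19.0%.

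Other genes of the programme and of other cell types were read in the same way. A list of 20 further mesenchymal genes, factors such as Tcf4 and matrix or adhesion genes such as Tnc, had 307 regions, of which 192 were in both lists, 86 (28.0%) in the Dll1- list only and 29 (9.45%) in the Dll1+ list only. Over all regions these single-list shares were 24.6% and 9.01%. Its genes with most regions in 1 list were Tcf4 (18 for Dll1- and 4 for Dll1+), Sox4 (13 and 6), Tnc (10 and 4) and Foxc1 (7 and 5). Promoter regions were present for 15 of the 20 in Dll1+ cells and for 16 in Dll1- cells. A list of 18 epithelial genes had 228 regions, with 29 (12.7%) in the Dll1- list only and 21 (9.21%) in the Dll1+ list only, and all 18 had a promoter region in both lists. The epithelial genes with 5 or more specific regions were Ehf (5 for Dll1- and 8 for Dll1+) and Grhl2 (6 and 5), both epithelial factors. The epithelial label of the sorted cells thus had all its listed promoters accessible in both populations.

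Fibroblast markers were read as cells that the sort could hold. Of 132 regions nearest to 15 fibroblast markers, 64 (48.5%, 40.1 to 56.9) were in the Dll1- list only, 5 (3.79%) in the Dll1+ list only and 63 in both, beside 24.6% and 9.01% of all regions in 1 list only. In rank the 63 did not lean to a side, with 13 at least 10 points higher in each list and a median difference of -1.08 points. Of the 13 higher in Dll1+, 7 were regions of Dcn, which had 2 higher in Dll1- and 4 in the Dll1- list only. Col5a1, Col1a2 and Dpt, which encode 2 collagen chains and dermatopontin, had 14, 11 and 5 regions in the Dll1- list only and 1, 0 and 1 in the Dll1+ list only. Promoter regions were present for 8 of the 15 in Dll1- cells and for 2 in Dll1+ cells, with Col1a2, Col6a1, Fap, Fbn1, Pdgfrb and Postn in the Dll1- list only. Col1a1, Col3a1, Dcn, Dpt, Lum, Tcf21 and Thy1 had none in either list. Immune markers had 12 of 34 regions in the Dll1- list only, with promoter regions for 2 of 12 markers in Dll1- cells and for 1 in Dll1+ cells, and none at Ptprc, which encodes CD45. Ptprc had 4 regions in the Dll1- list only and 2 in the Dll1+ list only, and Csf1r, a macrophage receptor gene whose promoter region was in the Dll1- list only, had 5 and 0. Endothelial markers had 37 of 113 regions in the Dll1- list only, with promoter regions for 2 of 10 in each list and none at Pecam1, which encodes CD31. Cdh5 had 7 regions in the Dll1- list only and 2 in the Dll1+ list only, Flt1 had 7 and 0, and Kdr had 4 and 3. The part of such cells in the Dll1- regions of Twist2, Zeb1 and the other genes was not tested. In sorted populations, fewer cells of a type and less accessible DNA per cell cannot be told apart.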

How the data were processed

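ATAC-seq of 7 samples from 4 tumors was analysed, 3 Dll1+ and 4 Dll1-. With the ENCODE ATAC-seq pipeline, the authors processed each group's samples together and deposited 1 optimal peak list per group. The aligner, caller and thresholds are not given in the sources used here. The deposited fold enrichment is the ratio of reads at a summit to local background. The deposited -log10 p-values and q-values and the deposited score, a capped multiple of the former, are the authors' own. The score and q-values were not used. The deposited summit offset gave summit positions. Per-sample counts were not analysed here, so no test or p-value was possible.

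The labels name mm10 and GRCm38. Of all rows, 0 passed a GRCm38 chromosome end, and 9.55% of Dll1+ and 8.77% of Dll1- summits lay within 100 bp of a GENCODE M21 TSS (0.755% and 0.774% after a shift of 10000 bp). Overlapping or touching rows of both lists (132872 and 148923) formed 119215 regions. A rank is the percentile, within its list, of the strongest row a region holds. Reads were solved from fold enrichment and p-value under a Poisson model, in which fold is reads plus 1 over background plus 1, for all but 1 row, and median summit reads were 43 in the Dll1+ and 61 in the Dll1- list. Molecular identifiers are not mentioned, so reads may repeat molecules and intervals cover counting error only. Solving and merging were tested on simulated data. The 9 genes, gene lists, motifs and named regions (the promoter regions, the strongest specific region of each gene and list, and the 5 largest rank shifts each way) were chosen with earlier results of these data known. From other lists, genes with 5 or more specific regions were named, at most 4 a list, without genes tied across that limit. Other marker genes named for their promoters, and Dcn for its ranks, were chosen after their values were seen. Of the 9 genes, 6 had promoter sequences in the RefSeq table used, none of them printed, since that of Vim overlapped an annotated UTR. Python 3.11.15, pandas 2.3.3, numpy 2.4.6 and scipy 1.17.1 were used.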

Additional observations from a re-analysis of the deposited data

How the results depend on the processing

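Of 50 values recomputed under other settings, 35 stayed within the main interval (shares and the median difference) or within 1.5 times (counts), and 15 moved. A fold enrichment of at least 5 in both lists left 94 regions, with 72.3% in both lists and 18.1% in the Dll1- list only (70.5% and 16.0% over all regions), and 6 Dll1- regions at Twist2 and 3 at Zeb1. A limit of 50 kb to the TSS left 53 regions, with 20.8% in the Dll1- list only, a median difference of 0.470 points and 7 regions ranked higher in each list. Those 7 were 20.6% of the regions in both lists. Over all regions within 50 kb the median difference was -1.99 points, with 13.1% ranked higher in Dll1+ and 25.2% in Dll1-. The nearest TSS of any gene type left 33 regions, with 24.2% in the Dll1- list only, 4 ranked higher in Dll1+ and 5 in Dll1-, and 3 Dll1- regions at Twist2 and 0 at Zeb1. Both settings assign fewer regions by construction. At 20 points, 7 ranked higher in Dll1+ and 10 in Dll1-. With 50 bp each side of the summit, 11.4% of regions in both lists held an AP-1 motif. Equal numbers of rows gave 28.6% in the Dll1- list only (22.3% over all regions), with 22 ranked higher in Dll1+ and 15 in Dll1-, so that the larger side turned. The median difference over all regions in both lists turned too, from -1.67 to 0.259 points. Promoters of 2500 bp each side gave 8 genes with a promoter region in both lists. Percentiles among merged regions gave a median difference of -3.40 points, with 15 ranked higher in Dll1+ and 29 in Dll1-. The other overlap rules and ranks by -log10 p kept the values they touch within those bounds. Of 90 counts of single genes, 54 stayed and 36 moved, 35 of them to fewer regions.

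No paired analysis was possible because only the pooled list of each group was analysed here, and for the same reason leaving out a sample was not run. The Dll1+ list is the shallower, and how many regions it misses for that reason was not tested.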
